A study of Rattus norvegicus with 88 samples.

Results

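Rats labelled batch 4 and rats labelled batch 6 were compared within a survey of brain gene expression. All were heterogeneous stock (HS) rats, an outbred stock bred from inbred founder strains, and all were naive to behavioural testing and drugs and were housed in groups. RNA was taken from the orbitofrontal cortex of both sides, a frontal area known for its part in weighing the value of expected outcomes. Members were chosen by the batch label alone. Of 44 labelled samples, 42 had a column in the table of 80 libraries, and the other 2 were not used here. Batch 4 had 26 libraries (12 males and 14 females) and batch 6 had 16 (8 males and 8 females). Both sexes and both batches shared the tissue, the stock and the absence of treatment. Each library came from 1 rat. The labels do not say what sets a rat batch apart, for example a shipment, a generation, a dissection date or an RNA extraction, so these cannot be told apart here. Age by batch was not given in the sources used.

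In an outbred stock no rats share a genome, so the level of a gene varies among rats with the alleles they carry as well as with the state of the animal and the tissue sampled. In a dissected cortical area, a shift in the share of cell types moves many genes together, and a change in the RNA of a cell moves others, and in bulk tissue fewer cells of a type cannot be told apart from less RNA per cell. The genes are given by Ensembl identifiers, which neither the table nor the reference table pairs with symbols (0 identifiers matched). What the named genes do, and whether markers of cortex or of other cell types were present, was therefore not analysed here.

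Depth and its related measures differed between the batches by less than the spread among libraries. The depth recovered from the values was 13.8 to 25.6 M reads in batch 4, with a median of 18.9, and 16.5 to 23.6 M in batch 6, with a median of 19.3. Mean depth was 19.2 ± 3.18 M (SD, n = 26) against 19.9 ± 2.19 M (SD, n = 16), a difference with an adjusted p of 0.680 (permutation test, two-sided). Genes listed at 0 numbered 283 to 692 in a library of batch 4 and 313 to 702 in batch 6 (permutation test, adjusted p = 0.933), and the 10 highest genes took 7.12% to 12.3% and 8.71% to 12.2% of the counts (permutation test, adjusted p = 0.680). The adjustment was over these 3 measures. Pearson correlations across genes between the 42 libraries were 0.956 to 0.984, and 0 of 861 pairs held identical values. In 5 genes the 42 libraries split by labelled sex, with a gap of 2 or more log2 units. All columns of both batches stand in the same run of ascending column names.

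The question was how far the levels of genes in rats of batches 4 and 6 lay apart once sex was accounted for. Of 17123 genes, 2352 passed an adjusted p of 0.05 in limma, which is 13.7% of the genes. Of these, 1192 were higher in batch 6 (6.96%) and 1160 lower (6.77%), so that 50.7% were higher. This split depended on the method. Quantile normalization gave 1179 higher and 1165 lower (50.3% higher), whereas voom on recovered reads gave 1760 higher and 895 lower (66.3% higher). Voom changes the scaling, the added constant and the weights together, and which of these moved the split was not tested. At an unadjusted p under 0.05 there were 5050 genes. A difference is batch 6 minus batch 4 in log2(normalized count + 1), and because of the added 1 it comes out too small for genes with few counts.

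The shifts were small and widely spread over the transcriptome. Among the genes that passed, the median absolute difference was 0.24 on the log2 scale, a change of 18.0%, with quartiles of 0.17 and 0.41. Over all genes the median was 0.10. The difference was under 0.25 in 1237 of the 2352 genes and under 0.5 in 82.0%. A difference of 1 or more was seen in 67 genes (0.391% of all genes), 22 higher and 45 lower in batch 6. The number past this size depended on the added constant and the libraries. It was 17 with a pseudocount of 10, 114 with voom on recovered reads, 114 in males alone and 1 in females alone. Of the 67 genes, 41 had a mean level of at least 3, of which 8 were higher and 33 lower.

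No gene separated the batches. The values of batch 4 and batch 6 overlapped in every one of the 17123 genes, so 0 genes (0% of all genes) were without overlap. In a gene that passed, a rat of batch 6 lay on the stated side of a rat of batch 4 in a median of 78.6% of the 416 possible pairs of rats, against 62.0% over all genes. The side is that of the difference in these same rats, which raises both shares, and more so in genes chosen for that difference. At least 90% of pairs were ordered one way in 39 genes (0.228%), and the highest share was 96.2%. The 16 rats of batch 6 all lay on the same side of the median of batch 4 in 343 genes (2.00%). Among those that passed, they all lay above it in 211 of the genes that rose, and all lay below it in 111 of those that fell. Set against the spread among rats of the same batch and sex, the difference was over 1 SD in 1659 of the 2352 genes and over 2 SD in 7, with a median of 1.10 SD. Genes passed on much the same ratio of difference to spread, so the threshold largely sets the lower end of these values.

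**Figure D1:**
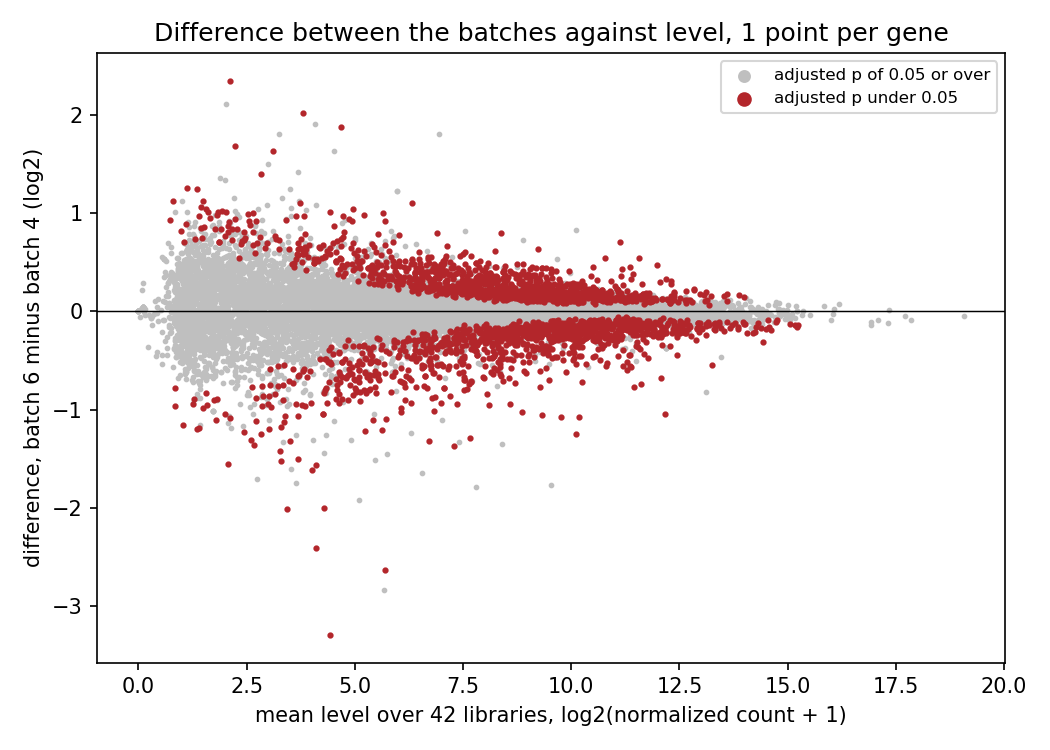
Difference between the batches (batch 6 minus batch 4, log2) against mean level over the 42 libraries (log2(normalized count + 1)), 1 point per gene, with the 2352 genes at a limma adjusted p under 0.05 in red and the others in grey. Red points lie on both sides of 0 at nearly every level, and those of the most abundant genes lie close to 0.

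The share of genes that passed rose with level, and the size of their differences fell. Among the 2272 genes with a mean under 3, 81 passed (3.57%), with a median absolute difference of 0.91 on the log2 scale. From 3 to 6 it was 300 of 2974 genes (10.1%), from 6 to 8 it was 512 of 3329 (15.4%) and from 8 to 10 it was 802 of 4775 (16.8%). Of the 3773 genes at 10 or over, 657 passed (17.4%), and their median absolute difference was 0.17. The median standard error fell from 0.28 in the lowest of these classes to 0.04 in the highest. In the highest class 233 genes were higher and 424 lower in batch 6, but this lean towards lower values depended on the normalization and the method of fit. With quantile normalization the numbers were 329 higher and 338 lower, and with voom on recovered reads they turned to 409 higher and 296 lower.

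Several patterns of difference occurred, and 4 genes chosen by rule show them. Each is an extreme by p or by size of difference in these same rats. That choice inflates their differences and shares of ordered pairs. ENSRNOG00000045837 had the smallest p of the genes that rose. Its normalized counts ranged from 29 to 106 in batch 4, with a median of 61, and from 70 to 213 in batch 6, with a median of 128. The ranges overlapped, but 11 rats of batch 6 lay above the highest rat of batch 4 and 19 rats of batch 4 lay below the lowest rat of batch 6. Its log2 level averaged 5.89 ± 0.48 over batch 4 rats (SD, n = 26) and 6.99 ± 0.51 over batch 6 rats (SD, n = 16), a difference of 1.10 (SE 0.15, limma adjusted p = 8.77e-05). A rat of batch 6 was the higher one in 95.4% of pairs. The difference was 1.38 in males alone (limma adjusted p = 0.00496) and 0.84 in females alone (limma adjusted p = 0.0865). Rats of batches 2 and 3, which were not part of this fit, had levels of 6.65 ± 0.48 (SD, n = 15) and 6.38 ± 0.50 (SD, n = 22), between those of batches 4 and 6. Most libraries of batches 2 and 3 stand in other runs of column names, and depth went down to 5.67 M reads in batch 2 and 9.06 M in batch 3. Levels of batches 2 and 3, here and for the genes below, are therefore not like for like with batches 4 and 6.

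ENSRNOG00000002722, an abundant gene, had the smallest p of the genes that fell. It had 2950 to 4309 normalized counts in batch 4, with a median of 3603, and 2738 to 3377 in batch 6, with a median of 3149. Of the rats of batch 4, 21 lay above the highest rat of batch 6, and female 13 of batch 4 was the lowest of its batch. Batch 4 had a log2 level of 11.82 ± 0.12 (SD, n = 26) and batch 6 of 11.59 ± 0.09 (SD, n = 16), and the difference of -0.23 (SE 0.03, limma adjusted p = 0.000126) was larger than the spread within either batch. It was -0.25 in males alone (limma adjusted p = 0.00541) and -0.21 in females alone (limma adjusted p = 0.264). In batches 2 and 3 the level was 11.65 ± 0.11 (SD, n = 15) and 11.78 ± 0.11 (SD, n = 22).

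ENSRNOG00000052690, a gene of low level, had the largest rise, among genes whose mean level was 3 or more. Normalized counts in batch 4 ranged from 0 to 36 with a median of 11, and 6 rats were listed at 0. In batch 6 they ranged from 0 to 95 with a median of 46.5, and male 13 alone was listed at 0. Its log2 level averaged 3.03 ± 1.91 among batch 4 rats (SD, n = 26) and 5.04 ± 1.63 among batch 6 rats (SD, n = 16), a difference of 2.02 (SE 0.55, limma adjusted p = 0.0123). With a pseudocount of 10 the difference was 1.19 and still passed. It was 1.56 in males alone (limma adjusted p = 0.242) and 2.46 in females alone (limma adjusted p = 0.330), neither past the threshold. Batches 2 and 3 were at 2.63 ± 2.30 (SD, n = 15) and 3.24 ± 1.81 (SD, n = 22), near batch 4.

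ENSRNOG00000060344 had the largest fall among these genes and was present in some rats and not seen in others. It was listed at 0 in 7 of 26 rats of batch 4 and in 11 of 16 rats of batch 6. In the other rats it ranged from 27 to 601 normalized counts in batch 4 and from 29 to 449 in batch 6. The numbers of rats without counts were thus 7 and 11, and the ranges of the rats with counts overlapped. Over all rats its log2 level was 5.70 ± 3.68 for batch 4 (SD, n = 26) and 2.36 ± 3.71 for batch 6 (SD, n = 16), a difference of -3.30 (SE 1.12, limma adjusted p = 0.0414). This call was lost in 25 of the 42 fits that left out 1 library, with a highest adjusted p of 0.0729. With voom on recovered reads the adjusted p was 0.124, with robust variance in limma 0.0528 and with batches 2 and 3 in the same limma fit 0.0573. With a pseudocount of 10 the difference was -1.95 (limma adjusted p = 0.0472). It was -2.02 in males alone (limma adjusted p = 0.447) and -4.50 in females alone (limma adjusted p = 0.345). In batch 2 it was at 0 in 5 of 15 rats and in batch 3 in 8 of 22.

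**Figure D2:**
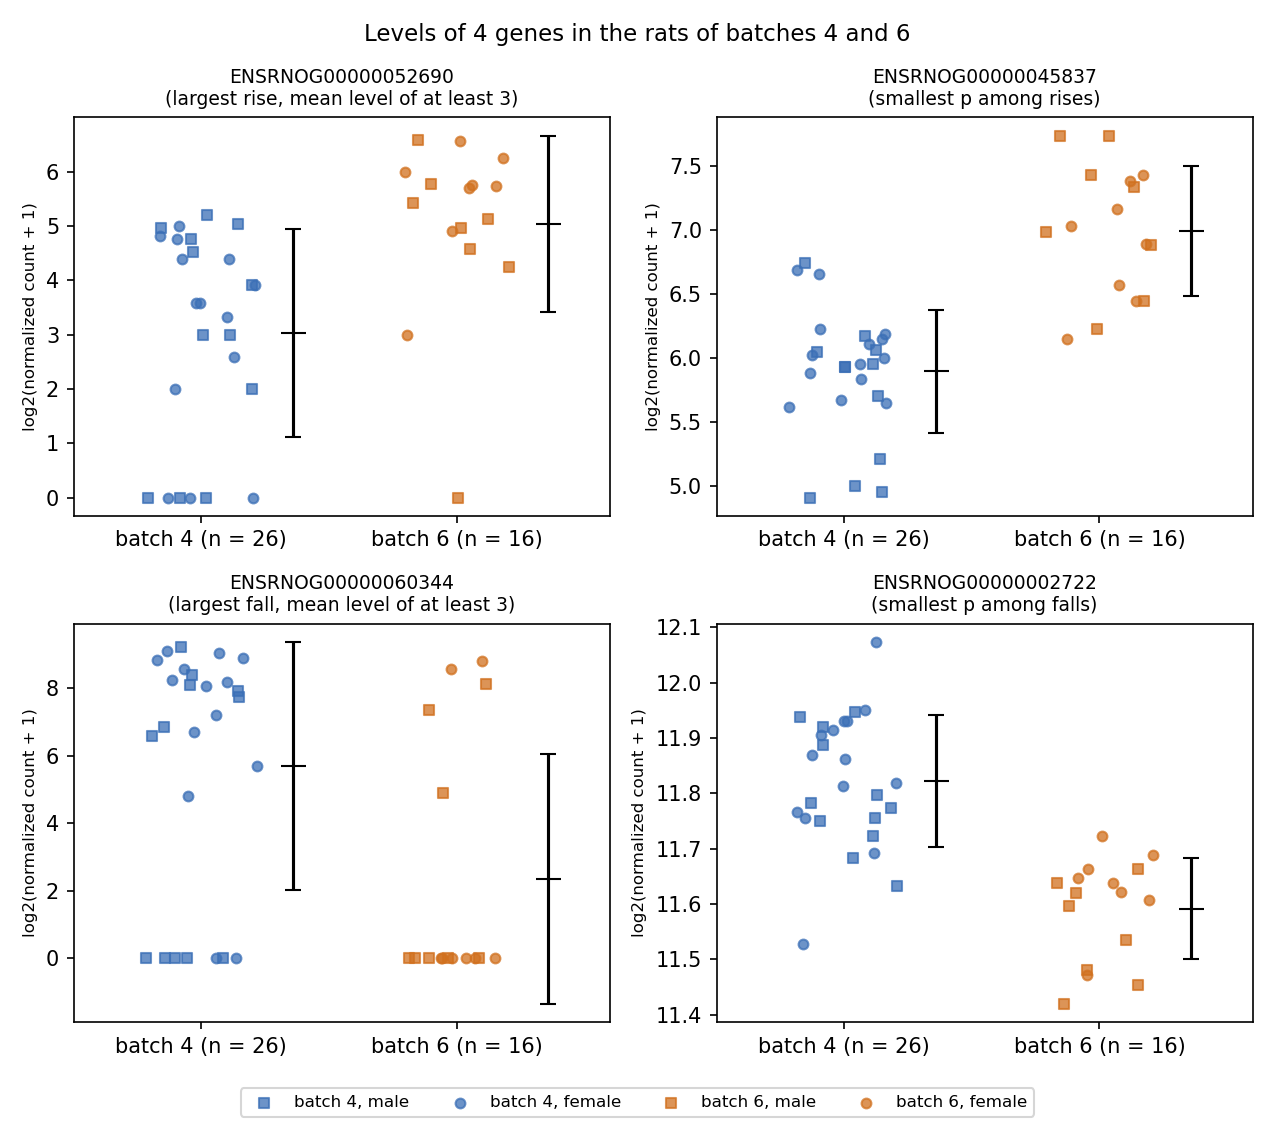
Levels of the 4 genes in the rats of batch 4 (blue, n = 26) and batch 6 (orange, n = 16) as log2(normalized count + 1), with males as squares and females as circles. Each point is 1 rat, and the black mark and bars give the batch mean ± SD. ENSRNOG00000060344 forms a row of rats at 0 (7 in batch 4 and 11 in batch 6), whereas ENSRNOG00000045837 and ENSRNOG00000002722 shift as a whole.

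Some genes had counts in some rats and none in others. In 69 genes at least 3 of the 42 rats had at most 3 recovered reads and at least 3 others had at least 100 normalized counts. Of these, 4 passed the test (5.80%), 2 higher and 2 lower, against 13.7% of all genes. The share of rats with at most 3 reads was larger in batch 6 in 36 of the 69 genes and larger in batch 4 in 33. It differed by a median of 10.6 percentage points, and by at least 40 points in 1 gene, ENSRNOG00000060344. The median SD among rats of the same batch and sex was 2.76 in these genes, a wide spread that the rule choosing them brings about. Their share that passed was not compared with that of other genes of like spread. Counts of 0 allow up to 3 reads, a limit that covers counting error only.

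The batch difference lay partly along the largest axis of variation among the libraries, an axis computed with that difference left in. The first principal component of the 42 libraries held 9.64% of the variance, and batch accounted for 39.0% of it (permutation test, adjusted p = 0.0001, whose raw p of 1e-05 was the smallest possible with these permutations). Its scores ranged from -35.4 to 39.1 in batch 4, with a median of -9.58, and from -5.88 to 47.6 in batch 6, with a median of 13.9. The batches overlapped: 13 of 16 rats of batch 6 and 6 of 26 rats of batch 4 had scores above 0, and the highest score of batch 4 was that of female 13. This rat and male 3 of batch 6 were the libraries of their batch with most genes listed at 0 (692 and 702), with scores of 39.1 and 42.7, and without both of them 2447 genes passed. In batch 4 many genes at 0 did not always go with a high score. There, male 17 (651 genes at 0) scored 19.4, but male 23 (625) and female 14 (601) scored -21.5 and -29.2. In batch 6 the libraries with most genes at 0 scored high. After male 3, these were male 13 (613), male 2 (563) and female 10 (560), with 47.6, 29.2 and 34.9. The lowest scores there, -5.88 to -3.53, were those of females 12 (417), 9 (386) and 11 (402). Males 15 (313) and 1 (365) and female 6 (361) had fewer genes at 0 but scored 6.70, 7.11 and 10.6. How far the first component follows genes at 0 was not tested. Males of batch 6 had scores from 6.70 to 47.6, and 8 of 8 were above 0. Females of batch 6 ranged from -5.88 to 34.9, with 5 of 8 above 0. For components 2 to 5 batch accounted for 0.668% to 6.36%, with adjusted p from 0.174 to 0.605 in permutation tests. Sex accounted for 1.01% of the first component (permutation test, adjusted p = 0.583) and for 24.2%, 24.5% and 30.8% of the second, the third and the fourth. The adjustment was over 10 tests.

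**Figure D3:**
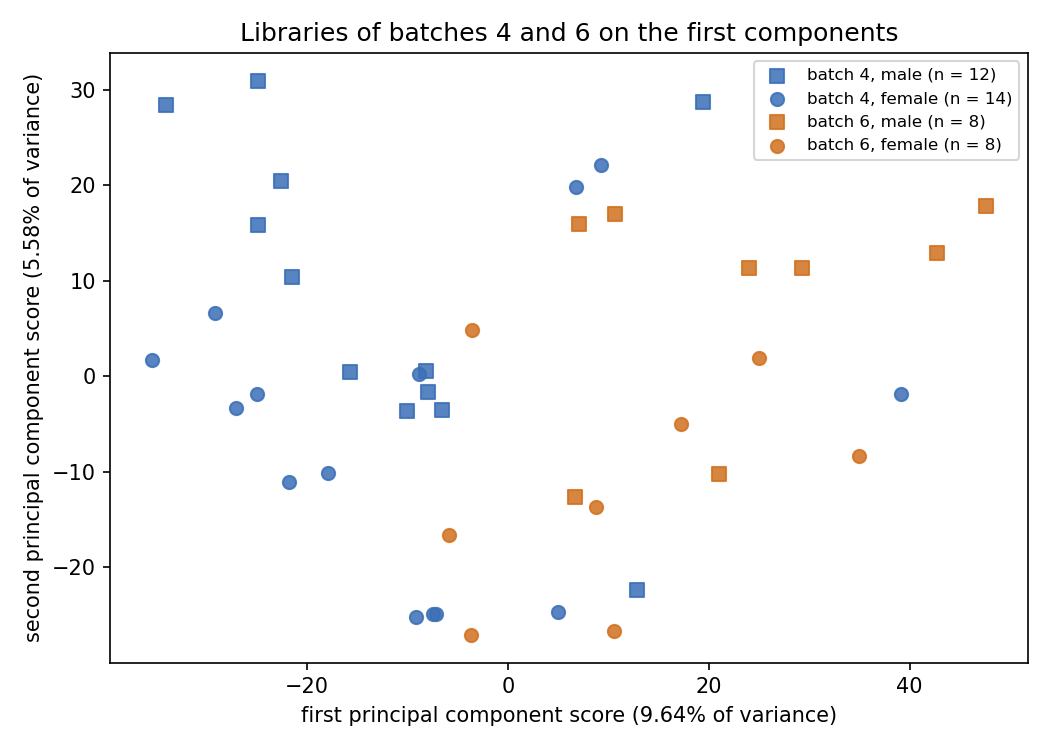
Scores of the 42 libraries on the first and second principal components of the gene-centred log2 values, with batch 4 in blue, batch 6 in orange, males as squares and females as circles. Batch 6 lies to the right of batch 4 on the first component with overlap, and males of batch 6 (6.70 to 47.6) are all above 0.

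The variation among rats of the same batch and sex was described by axes computed separately. How these axes relate to the components above was not tested. When the means of each batch and sex were removed, the first axis of the remaining variation held 7.69% of it, and 26.2% of the squared length of the batch difference over all genes lay on that axis. The next 4 axes held 0.621% to 3.81% of the difference each, and these 5 axes together held 32.5% of it. A difference made by sampling alone would also lie partly on these axes, and that share was not worked out. Genes that passed in the same direction also tended to vary together inside the batches. Choosing and splitting genes by their difference in these same rats favours such correlations, and no baseline for that choice was computed. Over residuals of the 42 libraries, the median Pearson correlation between a pair of genes was 0.23 among the 1138 genes that rose and had a mean of at least 3, and 0.24 among the 1133 that fell. Between a gene that rose and a gene that fell it was -0.22. Among 12580 genes that did not pass it was -0.000114. Those genes were not split by the sign of their difference, so this value is no contrast to the groups that were split. These are descriptions over the same libraries, and pairs of genes are not independent. With the first component as a further term in the fit, 0 genes passed in limma, and 1312 had an unadjusted p under 0.05. The component holds part of the batch label, so this term also takes up part of the difference.

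The spread among rats was of similar size in the batches, a comparison given without a test. The median SD of a gene with a mean level of 3 or more, after sex was removed, was 0.195 in batch 4 and 0.190 in batch 6, and 53.4% of 14851 genes had the larger SD in batch 4. Within sexes the median was 0.182 in the 12 males and 0.200 in the 14 females of batch 4, and 0.186 in the 8 males and 0.188 in the 8 females of batch 6.

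The batches were then compared within each sex, whose libraries do not overlap. In males alone 1672 genes passed in limma (9.76% of the genes), and in females alone 4 genes did (0.0234%), with 1579 at an unadjusted p under 0.05. Of the 1672 genes, 1609 had a difference of the same sign in females (96.2%), against 71.4% of all 17123 genes. Genes that vary together are not independent, so these shares do not count separate replications. Their median difference, taken in the direction seen in males, was 0.31 in males and 0.15 in females. The male values chose these genes and are inflated by that choice, whereas the female values are not. The 4 genes that passed in females all had the same sign in males. Over the 14851 genes whose mean level was 3 or more, the Pearson correlation of the male and female differences across genes was 0.549, where genes are not independent replicates.

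Whether the batch difference itself differed between the sexes was tested by the interaction of sex and batch. It passed in 0 of 17123 genes (0%) in limma, with 576 genes at an unadjusted p under 0.05 and a smallest adjusted p of 0.991. No gene was shown to differ between the batches by an amount that depended on sex. The counts within 1 sex also rested on single rats. Leaving out each male in turn gave 622 to 2470 genes. The count was 622 without male 13, 712 without male 2, 883 without male 3 and 1011 without male 14 of batch 6, and 1077 without male 25 of batch 4. Leaving out each female in turn gave 0 genes in 18 of 22 fits. The other 4 fits gave 11 genes without female 13, 3 without female 21 and 1 without female 8 of batch 4, and 10 without female 12 of batch 6. In the full comparison the count stayed between 1653 and 2993 over the 42 libraries left out in turn.

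**Figure D4:**
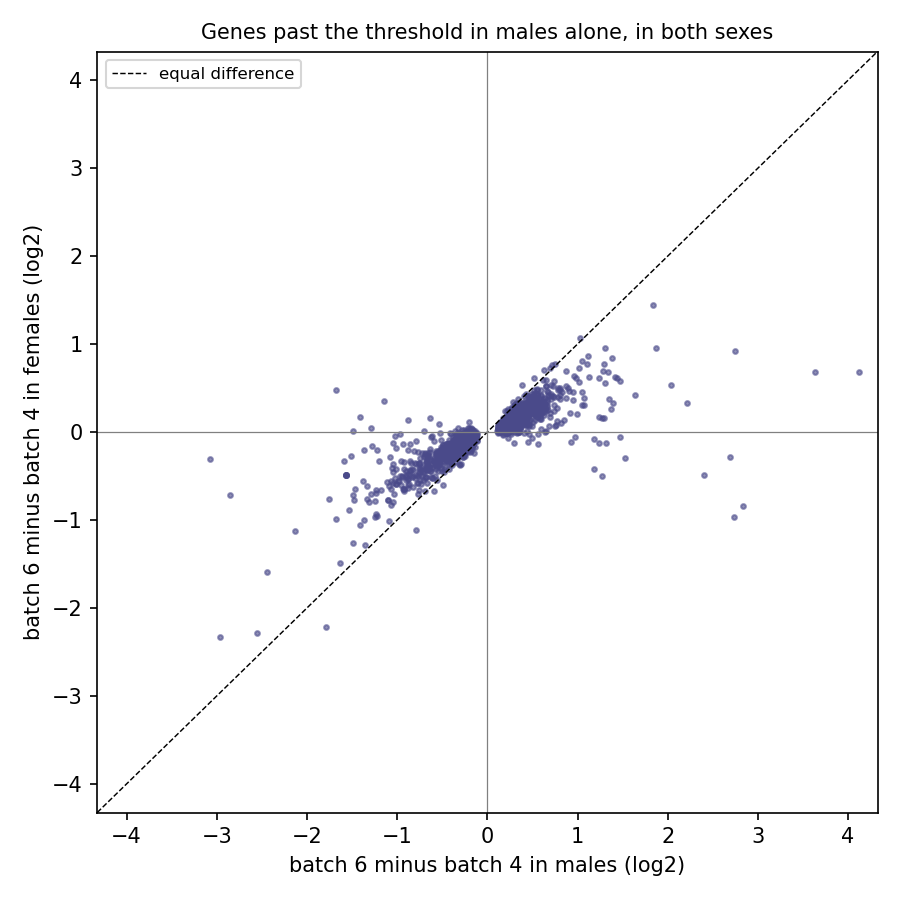
Difference between batches 6 and 4 (log2) in males (x axis) and in females (y axis) for the 1672 genes past the threshold in males alone, 1 point per gene, with a dashed line where both are equal. Most points (1609) lie in the quadrants of equal sign, closer to 0 on the female axis, and the male values chose the genes.

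The genes that differed between batches 4 and 6 were set beside the difference between batches 2 and 3, which shares no library with it. Most libraries of batches 2 and 3 stand in other runs of column names than batches 4 and 6, and the run was not a term in either fit. Between batches 2 and 3, 1286 genes passed (7.51% of the genes), of which 178 were among the 2352. That is 7.57% of the genes of batches 4 and 6 and 13.8% of those of batches 2 and 3, while 13.7% of all genes passed between batches 4 and 6. In 111 of the 178 genes (62.4%) the sign of batch 3 minus batch 2 equalled that of batch 6 minus batch 4. The share of equal signs over all genes was not computed. Batch 3 minus batch 2 was above 0 in 691 of the 1192 genes that rose in batch 6, in 556 of the 1160 that fell (47.9%) and in 51.3% of the 17123 genes. Over the 1192 genes that rose in batch 6 the median of batch 3 minus batch 2 was 0.03, over the 1160 that fell it was -0.01 and over all genes it was 0.00453, and the Pearson correlation across 14851 genes was 0.0568.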

How the data were processed

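Single-end reads from polyA RNA of 1 orbitofrontal cortex sample per rat had been trimmed with cutadapt and assigned to Ensembl rat transcripts with RSEM by the authors (build Rnor_6.0 in the submitters' processing notes), who applied an upper-quartile scaling in DESeq2, dropped genes of low count and deposited log2(normalized count + 1) values. Every value used here comes from that 1 deposited log2 table. Groups were taken from the batch labels, and each library is a separate rat. Normalized counts had been rounded to whole numbers, so the worth of 1 read in each library was estimated from which whole numbers occurred up to 300. It was 0.733 to 1.37 normalized counts, and 99.3% to 100% of these values equalled a rounded multiple of it, a share that tells nothing below a worth of 1, where each whole number is such a multiple. In 41 of 42 libraries the estimate led other values by at least 10 log-likelihood units. Depth is the sum over the table's genes divided by that worth, and is an estimate. Intervals and limits of counts cover counting error only.

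Differences (batch 6 minus batch 4) were fitted over 17123 genes with limma 3.58.1 in R 4.3.3, with sex as covariate, a mean-variance trend and Benjamini-Hochberg adjustment over all genes at 0.05. Permutation tests used 100000 resamples and were exact for groups under 10, two-sided. Scripts ran in Python 3.11.15 and were tested on simulated data. The named genes are those with the largest difference (mean of at least 3) and with the smallest p in each direction. The members and these rules were chosen with earlier results of these data known. Since no symbols were paired with the identifiers, gene lists, cell type markers and sequences were not used here.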

Additional observations from a re-analysis of the deposited data

How the results depend on the processing

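The count of 2352 genes moved by more than 1.5 times under 4 alternatives. It was 3825 with array weights and 4 in females alone. It was 0 with 20 principal components as terms (1199 genes at an unadjusted p under 0.05 in limma) and 0 with the first component as a term (1312 at an unadjusted p under 0.05), the latter chosen after seeing the data. The first component holds part of the batch label. The 20 components were computed over all 80 libraries, and their relation to batches 4 and 6 was not tested. Fitting 20 further terms to 42 libraries also leaves less from which to estimate the error. It stayed between 1653 (without male 13 of batch 6) and 2993 (without female 13 of batch 4) over 42 fits that left out 1 library. With voom on recovered reads, 1760 of 2655 genes were higher in batch 6 (66.3%), against 50.7% in the fit reported. With 20 components the difference of ENSRNOG00000052690 turned to -0.024. Leaving out 1 library kept ENSRNOG00000045837, ENSRNOG00000002722 and ENSRNOG00000052690 past the threshold in 42 of 42 fits, and the 16 other settings did so in 13, 13 and 12. ENSRNOG00000060344 passed in 17 of the 42 fits and in 9 of the 16 settings. The cause of these changes was not tested. In males alone depth differed by -0.176 M reads, and in females alone genes at 0 by -52.95 and the share of the 10 highest genes by 0.0824 percentage points, each of the opposite sign to both sexes together. Genes of low level have a large standard error, and rats with few reads limit what can be shown for them. No paired analysis was possible because each library came from a different rat. The rats were numbered here within each batch, so equal numbers link no animals.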
